A study of Mus musculus with 2 samples.

Results

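The genes described here are the expressed Zfp genes, mouse zinc finger genes whose symbol is Zfp followed by a number and an optional letter. Membership needed a highest listed isoform level of at least 1 FPKM (fragments per kilobase of transcript, scaled to sequencing depth), and Zfp42 was left out. By this rule 245 of the 15271 genes in the deposited table of predicted microRNA sites were members, and 10652 other genes also reached 1 FPKM. The study mapped where human Ago2 (hAgo2), the protein that holds microRNAs, touches RNA in mouse embryonic stem cells. It used iCLIP, in which ultraviolet light links a protein to RNA and the linked RNA is purified and sequenced. The TT-FHAgo2 line made hAgo2 with FLAG and HA tags, and its control, TT-Ago2, made untagged hAgo2. In both lines a single Argonaute family member was expressed under doxycycline control. Both lines were clonal and grew with LIF and serum on gelatin. Doxycycline stood at 0.1 µg/mL in routine culture and at 2.5 µg/mL for the last 24 h. Each group was 1 library, so no difference between lines has a replicate check and no test across replicates was possible.

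Most Zfp genes encode proteins with tandem C2H2 zinc fingers, short folds that each hold a zinc ion and usually contact DNA. The fingers are joined by a conserved linker, so the coding sequence of a long array repeats itself. Many of these proteins also carry a KRAB domain, which recruits the co-repressor Trim28 and silences retroelements and imprinted loci in embryonic stem cells. MicroRNAs guide Argonaute to messenger RNAs mainly through the seed, bases 2 to 8 of the microRNA, which pairs with a complementary match usually in the 3′ UTR. The miR-290 and miR-302 clusters, with miR-17 and miR-19, are known for high expression in these cells.

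The following mature microRNAs carry the seeds that the results turn on, with bases 2 to 8 in capitals. The sequences are those of RefSeq (GRCm38.p6). The first 3 share the 6mer match GCACTT and are called the miR-290 family here, and the last 2 are those with unusually many matches in Zfp coding sequence.
miR-294-3p: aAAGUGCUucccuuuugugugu
miR-302b-3p: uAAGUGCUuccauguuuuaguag
miR-290a-3p: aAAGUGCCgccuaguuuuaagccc
miR-17-5p: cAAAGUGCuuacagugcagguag
miR-19b-3p: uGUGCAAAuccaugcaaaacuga
miR-291a-5p: cAUCAAAGuggaggcccucucu
miR-23a-3p: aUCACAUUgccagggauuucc
miR-296-3p: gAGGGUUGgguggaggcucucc

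The deposited clusters are stretches of RNA where tagged reads were enriched over the untagged library by the authors' exact binomial test. Of 6211 clusters, 137 lay at members. The site values come from 789000 tagged reads, as the size of 1 read in the table shows. Stem cell markers were high, with Pou5f1 at 609 FPKM and Nanog at 295 FPKM. Of the markers for other cells, Gata6, Sox17, Cdx2, Col1a1, Col1a2 and Sox1 had no entry, and the highest of the rest was Pax6 at 3.95 FPKM. Intervals are exact Clopper-Pearson 95% intervals, or ratios of their bounds to the number given by other genes. They cover counting error only. For sites they are too narrow, since neighbouring sites share reads, and for clusters too, since some clusters overlap each other. The sources used here do not say how reads that match several related Zfp genes were placed, so values in paralogous finger repeats are uncertain.

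Ago2 clusters were found on 58 of the 245 Zfp genes, or 23.7% (95% interval 18.5 to 29.5). Among all genes of at least 1 FPKM the share was 21.5%, and among the other genes it was 21.4% (20.7 to 22.2). A 3′ UTR cluster was present in 43 members, or 17.6% (13.0 to 22.9), against 15.5% of all genes. A coding sequence cluster was present in 7 members, or 2.86% (1.16 to 5.80), against 4.9% of all genes. All 3 shares were thus near the background. The share with any cluster counts every cluster named for a gene, also those in introns, antisense, upstream or downstream.

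Zfp messages were scarcer than most. Their median level was 3.78 FPKM, with quartiles of 2.13 and 8.52, against a median of 9.93 FPKM for the other genes. When each member was set against other genes within the same 0.5 log2 step of FPKM, clusters were found on 1.43 times as many members as the other genes' share gave (1.12 to 1.78). This ratio turned below 1 against 73 genes of other C2H2-type families named by symbol (Zbtb, Zscan, Klf and the like). Of those 73, 33 had a cluster, or 45.2% (33.5 to 57.3), and the ratio became 0.583 (0.455 to 0.728). The interval of this ratio leaves out the counting error of the 73 genes, so it is too narrow.

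The excess over other genes was not even across levels. Between 1 and 2 FPKM, 11 of 53 members had a cluster, or 20.8% (10.8 to 34.1), against 8.55% (7.08 to 10.2) of other genes. From 2 to 5 FPKM the shares were 15.6% and 14.8%, and from 5 to 10 FPKM 18.8% and 19.9%. From 10 to 20 FPKM, 15 of 34 members had a cluster, or 44.1% (27.2 to 62.1), against 25% (23.1 to 27.0). From 20 to 50 FPKM the shares were 41.2% (18.4 to 67.1) of 17 members and 28.2% of other genes, and from 50 FPKM they were 2 of 3 members and 30.7%. The intervals of members and other genes did not overlap from 1 to 2 FPKM and from 10 to 20 FPKM. In each case they cleared each other narrowly, at 10.8 against 10.2 and at 27.2 against 27.0. For Zfp74 and Zfp933 in the lower range, and Zfp146 and Zfp191 in the upper, every cluster lay upstream or downstream of the gene. No count by level was made without such clusters, for members or for other genes. The 11 low members with a cluster were Zfp11, Zfp74, Zfp236, Zfp238, Zfp334, Zfp422, Zfp507, Zfp597, Zfp827, Zfp933 and Zfp943.

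**Figure D1:**
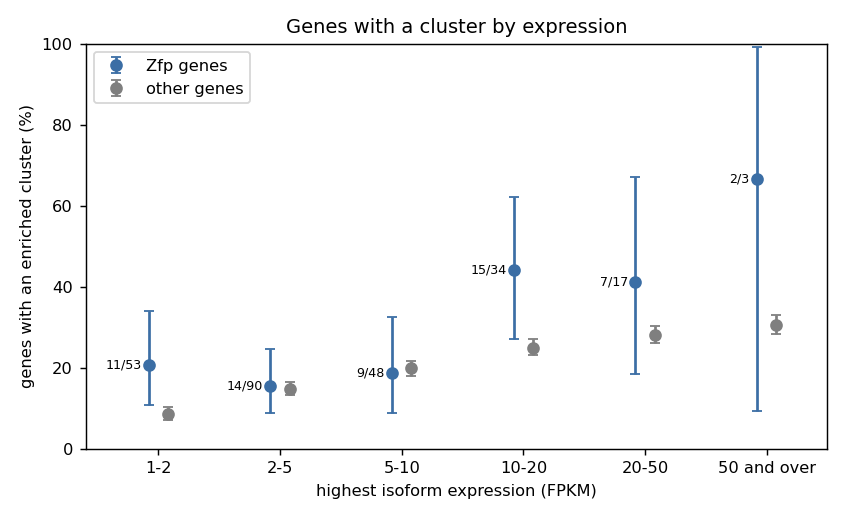
Share of genes with at least 1 enriched Ago2 cluster (vertical axis, %) by highest isoform level (horizontal axis, FPKM) for Zfp genes and other genes, with exact 95% intervals and the number of members beside each point. Members stand at 20.8% against 8.55% between 1 and 2 FPKM, and at 44.1% against 25% between 10 and 20 FPKM.

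The rule's threshold fell among genes of nearly equal level. Just inside it lay Zfp345 at 1.02 FPKM, Zfp597 at 1.04 and Zfp46 at 1.08, and just outside it Zfp235 at 0.998 FPKM, Zfp709 at 0.991 and Zfp715 at 0.987. Of these 6 genes, Zfp597 alone had clusters.

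The 137 member clusters held 1226 tagged reads against 33 in the untagged library, a number recovered from the authors' enrichment values. A cluster held a median of 7 tagged reads (quartiles 5 and 10) and was 43 nt wide at the median. No untagged read was counted in 118 clusters, or 86.1% (79.2 to 91.4), and the share for other genes was 87.5%. The authors' rule fixed part of both shares, since it let no cluster of fewer than 7 tagged reads have an untagged read. Of the 75 member clusters of at least 7 tagged reads, 56 had no untagged read, or 74.7%, against 77.9% for other genes. The fewest reads the authors accepted, 5 against 0, applied to 40 member clusters, or 29.2%. Merging clusters that overlap left 108, and a read in an overlap may count more than once in these sums.

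Signal was uneven among members. A single cluster was found in 26 genes, 2 clusters in 13 genes and at least 3 in 19 genes. The top 3 genes held 25.1% of the cluster reads and the top 10 held 48.9%. Genes with a cluster had a median of 5.93 FPKM and 33 listed 3′ UTR sites, against 3.47 FPKM and 17 sites for genes without one.

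**Figure D2:**
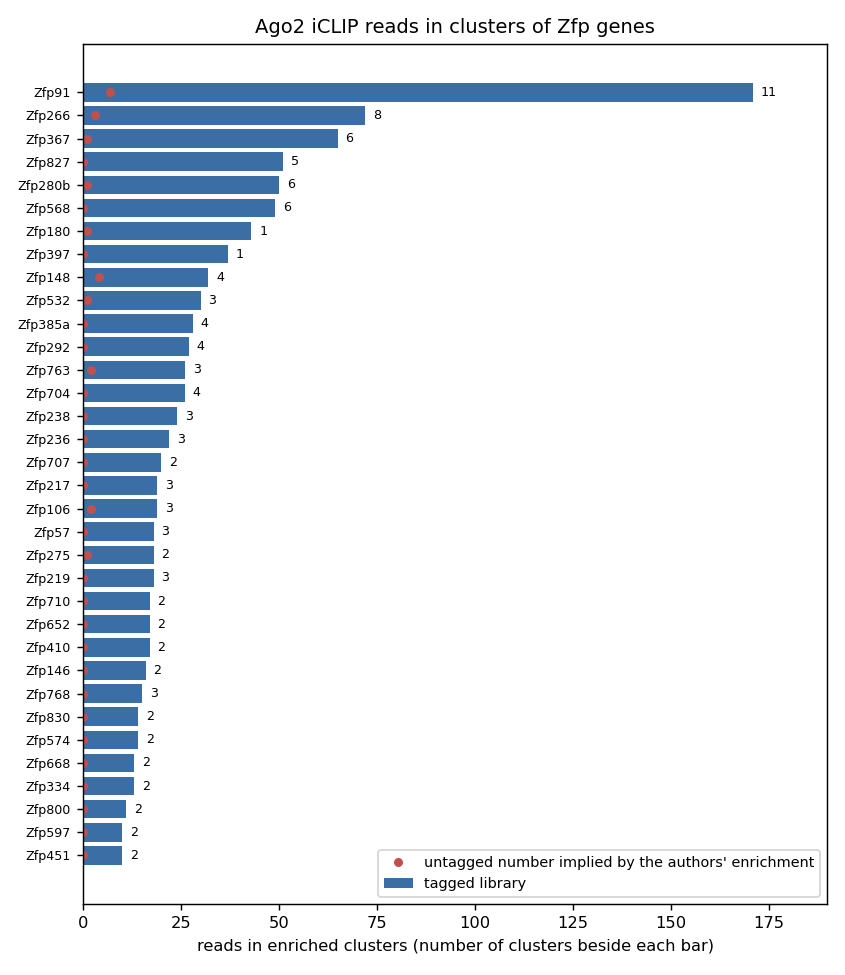
Reads in enriched clusters (horizontal axis) for Zfp genes with at least 2 clusters, and for Zfp180 and Zfp397 with 1 each; bars are the tagged library, dots the untagged number implied by the authors' enrichment, and the number at each bar counts clusters. Zfp91 leads with 171 tagged reads against 7, and no dot exceeds its bar.

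Zfp91, a ubiquitin ligase of non-canonical NF-κB signalling, had the most clusters and the most reads. Its 11 clusters all lay in the 3′ UTR, within mm9 chr19:12843249-12844413, and held 171 tagged against 7 untagged reads at 25.9 FPKM. The strongest, at chr19:12843249-12843359, had 42 tagged reads and 1 untagged (authors' exact binomial p = 5e-12), a ratio of 42 (7.14 to 1700). It held no listed 7mer or 8mer, but 6mers of 4 families, among them TTTGAT, the match of miR-291a-5p printed above. Another Zfp91 cluster, at chr19:12844019-12844101, had 35 tagged and 4 untagged reads (authors' exact binomial p = 1.68e-07). It covered GCACTTTA, an 8mer of the miR-17 family, and GGCACTT, a 7mer of miR-290a-3p. These matches overlap each other, so the same reads count for both, and the 7mer lies at a fully conserved position (PhastCons 1.0). Of the 55 listed 3′ UTR sites of Zfp91, 32 held a read.

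Zfp568, the KRAB protein known for silencing a placental transcript of Igf2, had 6 clusters in chr7:30811690-30813133, with 49 tagged and 0 untagged reads at 26.6 FPKM. All 6 overlapped a listed 7mer or 8mer, though some of the 6 overlapped each other over the same match. The strongest, at chr7:30812537-30812614, had 14 reads against 0, at least 4.67-fold higher with a floor of 3 counts per cluster. It lay over TTTGCAC, the 7mer of miR-19, and GTGCCTT. Of its 85 listed 3′ UTR sites, 49 held a read, or 57.6% (46.4 to 68.3).

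Zfp827 stood apart by its low level: at 1.58 FPKM it had 5 clusters with 51 tagged and 0 untagged reads in chr8:81715792-81717243. Zfp367 (6.38 FPKM) had 6 clusters with 65 tagged reads and 1 untagged in chr13:64234666-64236564. Its strongest, at chr13:64236495-64236564, had 21 reads against 0, at least 7-fold higher. Zfp280b (22.9 FPKM) had 6 clusters with 50 tagged reads and 1 untagged in chr10:75502782-75505434. Its strongest cluster, at chr10:75502993-75503047, had 16 tagged reads and 1 untagged, a ratio of 16 (2.49 to 671), over GTTTGAGA, an 8mer of the miR-290a-5p family. All clusters of these genes had more tagged than untagged reads, as the authors' rule requires.

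Further members had 4 clusters each. Zfp385a had 28 tagged reads, Zfp292 had 27 and Zfp704 had 26, each against 0 untagged. In Zfp148, a transcription factor that binds GC-rich DNA, 3 clusters lay in the 3′ UTR, and another, annotated as antisense, held 17 of the 32 tagged and all 4 untagged reads. Zfp763 had 3 clusters, each over a listed 7mer or 8mer, with 26 tagged and 2 untagged reads. Of these, 2 lay in the 5′ UTR and overlapped each other over the same GTTTGAG, with 7 tagged reads and 1 untagged each. Zfp532 had 1 3′ UTR and 2 intron clusters, with 30 tagged reads and 1 untagged. Zfp707 had 13 reads against 0 in its stronger cluster, at chr15:75805905-75805969, over the miR-17 family 8mer GCACTTTA.

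A few members carried strong clusters for which the site table lists little or nothing. Zfp180 had the lowest p of all member clusters, with 43 tagged reads and 1 untagged in a single 3′ UTR cluster at chr7:24891506-24891591 (authors' exact binomial p = 2.56e-12), a ratio of 43 (7.32 to 1740). It is the 1 member with no listed site anywhere. Zfp266 had 8 clusters with 72 tagged and 3 untagged reads in chr9:20302363-20303392, and no 3′ UTR entry in the site table. Such clusters could not be matched to a seed here. Zfp397 had 37 reads against 0 in 1 cluster on chromosome 18 (authors' exact binomial p = 7.28e-12), at least 12.3-fold higher, over 7mers of miR-290a-3p and miR-293-3p. The miR-290a-3p match in Zfp397 was hardly conserved, with a PhastCons score of 0.004. At the other end, the member cluster with the highest p was that of Zfp940, downstream of the gene, with 15 tagged and 6 untagged reads, a 2.5-fold ratio (0.917 to 7.86).

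Most member clusters lay in 3′ UTRs. These held 104 of the 137, or 75.9% (67.9 to 82.8), against 71.1% of other genes' clusters. In shares of clusters, other genes include those listed below 1 FPKM. Coding sequence held 13, or 9.49% (5.15 to 15.7), against 14.8% (13.9 to 15.8). Introns held 9, the 5 kb downstream 7 and the 5′ UTR 2, with 1 upstream and 1 antisense.

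Of the 104 clusters in 3′ UTRs, 11 from 4 genes had no table entry of any kind within 100 nt. Of the other 93, 57 lay over a listed 7mer or 8mer, or 61.3% (50.6 to 71.2), against 50.2% (48.5 to 51.9) of such clusters in other genes. A further 18 covered a 6mer only and 18 covered none, which is 19.4% (11.9 to 28.9) against 22.6%. A miR-290 match of any length lay in 33 of the 93, or 35.5% (25.8 to 46.1), against 26.3% (24.9 to 27.9). Of these 33 clusters, 20 held a 7mer or 8mer of the family. The miR-290 6mer GCACTT lies inside every miR-17 7mer GCACTTT, so the rest cannot all be assigned to the miR-290 family. The intervals of members and other genes overlapped for these 3 shares. Clusters that overlap each other over the same match were counted separately in them. Of all 104 clusters, 22 covered a miR-17 match and 10 a miR-19 match. Those over a miR-17 7mer or 8mer are also among the 33 above. No such counts were made for other genes, so these describe the members only.

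The 13 coding sequence clusters lay in 7 genes. Zfp238, now named Zbtb18, a BTB-domain repressor of neural development, had 3 of them in chr1:179377993-179378109, with 24 tagged and 0 untagged reads at 1.97 FPKM. Its strongest had 13 reads against 0, at least 4.33-fold higher. Zfp57, which maintains DNA methylation at imprinted loci, had 3 overlapping clusters in chr17:37147115-37147203 with 18 tagged and 0 untagged reads, at 108 FPKM. Zfp710 and Zfp768 had 2 each. Zfp217, Zfp296 and Zfp800 had 1 each, with 5, 7 and 6 reads against 0. Of the 13, 3 covered a listed 7mer or 8mer, or 23.1% (5.04 to 53.8), against 31.3% of other genes' coding sequence clusters. A further 4 covered a 6mer only and 6 none, which is 46.2% (19.2 to 74.9) against 51.7%.

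Predicted sites give a second measure, counting every read at a site and not only those in enriched clusters, with no untagged values. In the site shares, all genes and other genes include those listed below 1 FPKM. Members had 6205 listed sites in 3′ UTRs, and 1061 held a read, or 17.1% (16.2 to 18.1), against 16.8% over all genes. The control 8mers, matches of microRNAs outside the top-ranked set, held a read at 11.6% in members and 11.5% in other genes. A read was held by 23.6% of member 8mers (20 to 27.6), 19.5% of 7mers and 15.7% of 6mers. An enriched cluster covered 140 sites, or 2.26%, against 1.81% over all genes. At equal FPKM the member share was 1.07 times the number given by other genes (1.02 to 1.14), and 0.684 times against the other C2H2-type families alone.

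Among families with at least 50 member sites in 3′ UTRs, the miR-290 family had the highest support. Of its 150 sites in 3′ UTRs, 83 held a read, or 55.3% (47.0 to 63.4), against 49.5% over all genes, and 27 lay in clusters. At equal FPKM the ratio was 1.05 (0.889 to 1.2), an interval that includes 1. The miR-19 family followed with 39 of 99, or 39.4%, then miR-148 with 35 of 109, or 32.1%. The miR-17 family had 58 of 188, or 30.9%, and miR-15/16 had 42 of 162, or 25.9%. Other genes gave 33.3%, 24.6%, 27.3% and 22.9% for these 4 families in the same order. The order of these 5 families in other genes thus differed only in that miR-17 stood above miR-148.

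Families with the most 3′ UTR sites were not those with the most support. The miR-335-3p family had 287 sites with 11.8% support, and the miR-290a-5p family 253 with 16.2%. The miR-27 family had 224 sites with 19.2% and miR-381 had 194 with 16.5%. The miR-23 family had 235 sites and 7.23% support (4.27 to 11.3), below the 13.4% (12.6 to 14.2) of other genes.

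**Figure D3:**
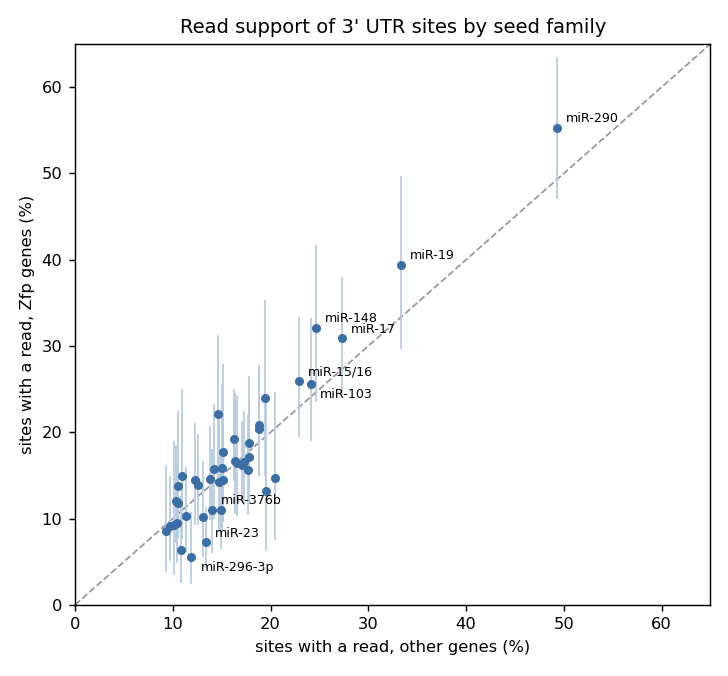
Share of 3′ UTR sites holding a read in other genes (horizontal axis, %) and in Zfp genes (vertical axis, %), 1 point per seed family with at least 50 member sites; bars are exact 95% intervals and the dashed line marks equal shares. The miR-290 family is highest at 55.3%, and miR-23 lies under the line at 7.23%.

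The miR-290 sites were spread over 90 members, of which 60 had a read at such a site and 25 had one in a cluster. The most read was the Zfp91 7mer GGCACTT at chr19:12844056-12844062, with 49 reads. Zfp397 had 40 reads at its match, Zfp367 had 17, Zfp568 had 16, Zfp622 had 15 and Zfp827 had 14. Zfp422, Zfp507 and Zfp652 had 12 each. The matches in Zfp568, Zfp622 and Zfp652 are 6mers; that of Zfp568 overlaps the miR-19 7mer TTTGCAC, and that of Zfp652 the miR-17 7mer GCACTTT. In all, 50 of the 150 sites were 6mers and 68 overlapped a 7mer or 8mer of another family, of which 54 that of miR-17, so their reads cannot be told apart. Among sites with a PhastCons score of at least 0.9, 24 of 36 held a read, and among those below 0.1, 44 of 87 did. Sites with and without conservation were thus both read.

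A smaller share of coding sequence sites held a read in members than in other genes. Of 4335 listed sites, 387 held a read, or 8.93% (8.09 to 9.82), against 11.7% over all genes and 11.8% (11.6 to 11.9) of other genes. The control 8mers showed the same order, with 5.63% in members and 8.54% in other genes. An enriched cluster covered 9 member sites, or 0.208%, against 0.414% over all genes. At equal FPKM the member share was 0.866 times the number given by other genes (0.784 to 0.952). The median PhastCons score of these sites was 0.480 in members and 0.992 in other genes, and the part of conservation in the lower share was not tested.

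The make-up of coding sequence sites differed most in the miR-23 and miR-296-3p families. The miR-23 family, whose 7mer is AATGTGA, had 358 sites in 100 members, or 8.26% of all member sites in coding sequence, against 1.76% in other genes. The miR-296-3p family, with the 7mer CAACCCT, had 317 sites in 101 members, or 7.31% against 1.79%. Their shares were 4.69 and 4.09 times those of other genes. The miR-376b family came next by number, with 183 sites, or 4.22% against 2.27%.

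**Figure D4:**
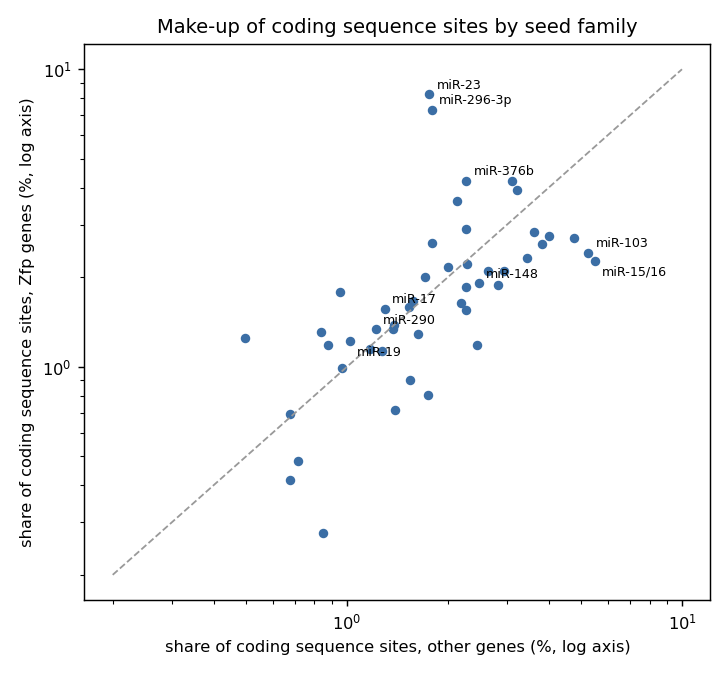
Share of all listed coding sequence sites that each seed family makes up, in other genes (horizontal log axis, %) and in Zfp genes (vertical log axis, %); each point is 1 of 48 families and the dashed line marks equal shares. The miR-23 and miR-296-3p families stand above the rest at 8.26% and 7.31%.

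Reads at these abundant sites were few. A read was found at 16 of the 358 miR-23 sites, or 4.47% (2.58 to 7.16), against 8.53% in other genes. A read was found at 12 of the 317 miR-296-3p sites, or 3.79% (1.97 to 6.52), against 7.63%. For both families together, at equal FPKM, support was 0.632 times the number given by other genes (0.422 to 0.906). None of these 675 sites lay in an enriched cluster, which allows a share of up to 0.444%, taking 3 counts as the most that a count of 0 allows. The share was 0.208% over all member sites in coding sequence and 0.414% over all genes. Both lie below that limit, so the count of 0 does not set these sites apart. Support was also low at sites annotated to 3′ UTRs. There the ratio for both families was 0.574 (0.376 to 0.835), and 5.59% of miR-296-3p sites held a read against 11.9% in other genes. Some of these 3′ UTR sites recurred at the spacing described in the next paragraph, and they were not analysed apart. Leaving both families out was a choice made after their low values were seen, and it favours a rise of the ratio. The coding sequence ratio went from 0.866 to 0.936 (0.845 to 1.03), an interval that includes 1. The part of these families in the lower share was not tested. In coding sequence too, the miR-290 family had the highest support, with 24 of 58 sites read, or 41.4% (28.6 to 55.1), and a ratio of 0.904 (0.625 to 1.2). Among families with at least 50 coding sites the next were miR-103 at 22.9% and miR-17 at 17.6%.

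The sites of both families recurred at a fixed distance. Among 211 pairs of neighbouring miR-296-3p sites under 1000 nt apart in a member's coding sequence, 172 lay a multiple of 84 nt apart, or 81.5% (75.6 to 86.5), and 101 exactly 84 nt. For miR-23, 93 of 205 pairs did, or 45.4% (38.4 to 52.4), with 60 at exactly 84 nt. For miR-376b it was 69 of 94, or 73.4% (63.3 to 82.0), against 39.7% in other genes. The miR-290 family had 9 such pairs in all, of which 2 fell on a multiple, or 22.2% (2.81 to 60), too few to set it apart, against 0.917% in other genes. A distance of 84 nt is 28 codons, the usual length of a C2H2 finger with its linker. Other genes had 58.2% for miR-296-3p and 23.1% for miR-23, and those other genes include further C2H2 families and the Zfp genes below 1 FPKM. The spacing was examined after the abundance of these sites had been seen, and distances are genomic, so pairs that span an intron are not in register.

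**Figure D5:**
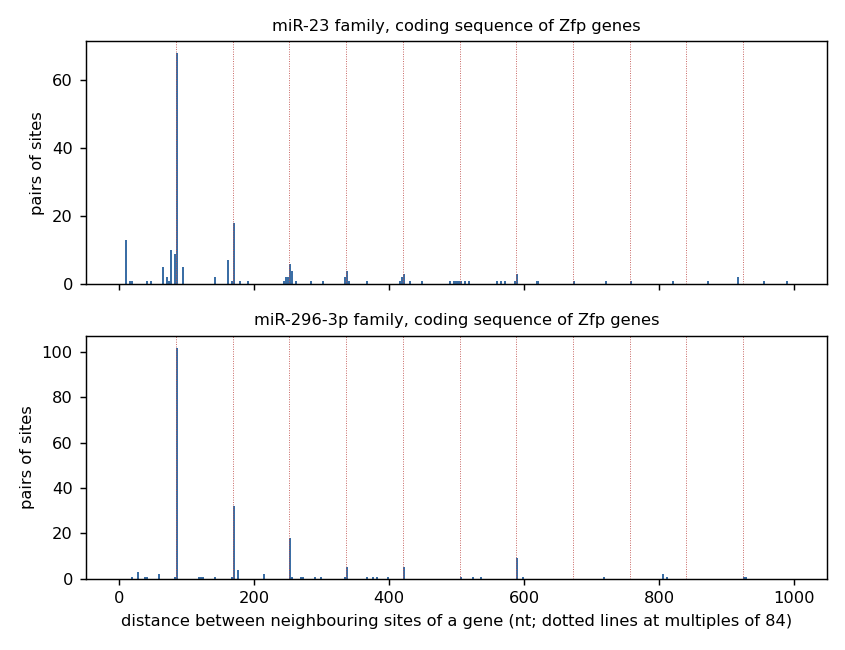
Distance between neighbouring coding sequence sites of the same Zfp gene (horizontal axis, nt, bins of 3 nt) against the number of pairs (vertical axis), for the miR-23 family (top) and the miR-296-3p family (bottom); dotted lines mark multiples of 84 nt. The tallest bars stand at 84 nt, with 60 and 101 pairs at exactly that distance.

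Zfp808 had the most sites of the pair of families, 18 of miR-23 and 22 of miR-296-3p. None of these 40 sites held a read at 9.41 FPKM, which by the same 3 counts allows a share of up to 7.5%. Zfp937 had 20 such sites and Zfp72 had 17, all without a read. Zfp51 had 16, of which 2 held a read. In all, 126 members had at least 1 such coding site and 21 of them had a read at one. Of the 57 members with at least 5 such sites, 46 had no read at any. With a read at only 4.15% of these sites, a gene with few of them will often have none. No matching counts were made for other genes or other families. All the counts in this paragraph are from repeated sequence, where the placing of reads is uncertain as stated above.

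Some 8mers of microRNAs outside the top-ranked set were also frequent in Zfp coding sequence. Of the 12 most frequent there, a choice that favours high shares, 11 made up a larger share in members than in other genes. GAAGAAGA did not, at 0.732 times. TGTGGGAA, an 8mer of miR-188-3p, occurred 263 times, a share 17.7 times that in other genes, and 5.7% of its sites held a read against 6.71% in other genes. TGGAGAGA occurred 265 times, 11.6 times its share in other genes, with a read at 2.26%. ACACTGGA, of miR-199a-5p, occurred 93 times with a read at 3.23%.

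No cluster was found on 187 members, of which 138 had a read at a listed site and 49 had none. The most expressed were Zfp207, a spindle assembly factor that binds Bub3, at 115 FPKM, Zfp428 at 40.6, Zfp259 at 38.2, Zfp330 at 37.7 and Zfp706 at 36.4. Zfp207 had a read at 4 of 53 listed sites and at 15 of 56 control sites. Zfp644 had the most site reads without a cluster, 33, followed by Zfp462 with 31, Zfp945 with 30, Zfp516 with 26 and Zfp706 with 25.

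Of 20 listed partners of KRAB silencing, 9 had a cluster, or 45% (23.1 to 68.5), an interval that includes the 28.2% and 30.7% of other genes at 20 to 50 FPKM and above. The share among all genes of at least 1 FPKM was 21.5%, but most of these partners are expressed above the median gene. Trim28, the co-repressor that KRAB domains recruit, had 3 clusters with 19 tagged reads and 1 untagged at 589 FPKM. Cbx5, a heterochromatin protein that binds methylated histone H3, had 3 with 24 against 0. Suv39h1, a histone methyltransferase, had 4 with 28 against 0, and the chromatin remodeller Atrx had 2 with 41 against 0. Dnmt1, the maintenance DNA methyltransferase, had 2 with 59 against 1, although the site table lists it at only 0.165 FPKM. Chd4, Morc3, Atf7ip and Smarcad1 had 1 or 2 clusters each. Setdb1, the methyltransferase that Trim28 brings to its targets, had none, nor did Cbx1, Cbx3, Chd3, Hdac1, Hdac2, Mbd3, Daxx, Dnmt3a, Dnmt3b and Uhrf1.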

How the data were processed

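Files of the tagged library were used, and the untagged library entered through the authors' enrichment values. Bowtie, TopHat, mm9 and NCBIM37 are named in the submitters' processing notes; the sources used here do not name the cluster caller, the FPKM source or the microRNA ranking. The authors deposited each cluster's peak height as signal and a score field joining tagged reads, log2 enrichment and an exact binomial p-value. Untagged numbers were recovered from the log2 values and matched in 6211 of 6211 clusters (tolerance 0.0051), and their scaling is unknown. Deposited site values are RPM, and 100% of 1641948 entries were whole multiples of 1.267 RPM, 1 read (tolerance 0.001). With 1 library per group no count test could be run. Transcript levels are the authors' FPKM, and conservation is the deposited PhastCons score. Duplicate entries, 12225 7mers and 15123 6mers inside a longer match of the same seed, and 170165 control sites overlapping a listed site were removed, which left 1421477 sites. Listed sites are matches of 50 seeds in 48 families, and controls are 966 other 8mers. The site table ends at 0.1 FPKM.

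A site was supported with at least 1 read, and a cluster covered a site with at least 1 nt of overlap. Member counts were divided by the number that other genes' shares gave in 0.5 log2 FPKM steps, for sites within the same region. Scripts were tested on simulated data and used Python 3.11.15, pandas 2.3.3 and SciPy 1.17.1. Coordinates are 1-based. Of the 245 symbols, 236 match RefSeq, and 9 have since been renamed. Genes were named as those with the most clusters, cluster reads, matched clusters or coding clusters, the lowest p, or the highest level or most site reads without a cluster, and at the threshold. Families were named by most sites, or by highest support among those with at least 50 member sites. Members and lists were chosen with earlier results of these data known. Alternatives changed the FPKM minimum, the p and read thresholds, the match types, the step width and the other genes compared.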

Additional observations from a re-analysis of the deposited data

Results flagged for a closer look

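Clusters were also named for 4 Zfp genes that the FPKM threshold kept out of the members. Zfp871, listed at 0.37 FPKM, had 6 clusters with 75 tagged and 0 untagged reads, more reads than any member but Zfp91. Of these 6, 1 was annotated to the 3′ UTR and 5 to the 5 kb downstream of the gene. Zfp790, at 0.95 FPKM, had 7 tagged reads in its clusters. Zfp354c, at 0.9 FPKM, and Zfp651, at 0.496 FPKM, had 5 tagged reads each. They drew attention as signal above the untagged library in Zfp genes outside the members. Like other Zfp genes below 1 FPKM, these 4 count among the other genes in the shares of clusters and of sites. The same holds for the make-up by family and the spacing of sites. Shares of genes of at least 1 FPKM leave them out.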

How the results depend on the processing

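Of 48 alternative values, 33 kept their direction and stayed within the counting interval of the value reported, or within 1.5 times a count. Against other C2H2-type families alone, the ratio of members with a cluster reversed to 0.583 and that of supported 3′ UTR sites to 0.684, while the coding sequence ratio moved to 0.585. Members of at least 5 FPKM gave 33 genes with a cluster, and support of 22.3% in 3′ UTRs and 10.3% in coding sequence. At least 2 reads gave support of 7.59% and 2.03%, and a 3′ UTR ratio of 1.18. Sites in a cluster gave 2.26% and 0.208%, with a 3′ UTR ratio of 1.43. Matches of 7 or 8 bases gave 20.7% in 3′ UTRs and a coding sequence ratio of 0.78. Clusters of at least 7 tagged reads gave 74.7% without an untagged read, because every smaller cluster had 0 by the authors' rule. A need for at least 2 reads can only lower a share of supported sites. The cause of the other shifts was not tested. The ratio for clusters fell to 1.29 (1 to 1.6) against other genes that have a listed 3′ UTR site. Leaving out Zfp91, the miR-23 and miR-296-3p families, and genes without 3′ UTR sites were alternatives chosen after seeing the data. Clusters of 5 reads are the fewest the authors list, so a cluster of fewer reads could not be seen. No paired analysis was possible because each group is 1 library.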

Other observations

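Members lay on 20 chromosomes and made up 2.25% of all genes of at least 1 FPKM. They made up 6.81% of such genes on chromosome 7 (55 members), 6.25% on chromosome 17 (33 members), 5.24% on chromosome 13 (20 members) and 2.82% on chromosome 8 (17 members). On these 4 chromosomes 23.6%, 12.1%, 15% and 23.5% of the members had an enriched cluster, against 23.7% of all members. Sites that held a read had a higher median PhastCons score than those without in both regions. In members the median PhastCons score was 0.106 against 0.0289 in 3′ UTRs and 0.968 against 0.439 in coding sequence. Other genes showed the same order, with 0.1495 against 0.0252 in 3′ UTRs and 0.9955 against 0.9908 in coding sequence. These are descriptions over sites that share genes and reads.

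Distances that are multiples of 84 nt were also found among sites annotated to 3′ UTRs. For miR-23, 13 of 82 neighbouring pairs in members lay a multiple of 84 nt apart, or 15.9% (8.72 to 25.6), against 1.93% (1.32 to 2.73) in other genes. For miR-296-3p the shares were 18.4% and 1.88%, and for miR-376b 23.3% and 3.15%. For the miR-290 family 0 of 39 such pairs did.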
